A study of Mus musculus with 4 samples.

Results

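The genes described here encode the actin cytoskeleton of mouse neutrophils and its links to movement: actins and the proteins that handle actin monomers, the Arp2/3 complex, the WASP and WAVE activators, formins and Ena/VASP proteins, cappers and bundlers, myosin II with its ROCK kinases, membrane and integrin linkers, and small GTPases. They were chosen by gene symbol from a fixed list of 55, and all 55 were found among the 16566 genes in each library's file. RNA was sequenced from neutrophils of C57BL/6 mouse bone marrow with a stated purity above 95%, held in medium with 20% fetal bovine serum for 1 h. The ruxolitinib group (2 libraries) received ruxolitinib, an inhibitor of the kinases JAK1 and JAK2, for 1 h, and the vehicle group (2 libraries) received 80% glucose with 20% PEG300 for 1 h. The labels give the dose as 0.1 µM in the treatment field and as 1 µM in the protocol, so it is uncertain. Age and sex of the mice, pooling, and whether replicates came from separate cultures or animals are not stated in the sources read, so p-values measure only the spread between these libraries, which may be technical.

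Actin exists as single molecules that join into filaments and leave them again, and a neutrophil crawls by pushing its front forward with newly built filaments while myosin II contracts its rear. The Arp2/3 complex starts branches on existing filaments when WASP or WAVE proteins, switched on by Cdc42 and Rac, activate it. Formins and Ena/VASP proteins lengthen unbranched filaments, cappers stop them, cofilin takes them apart, and talin and kindlin tie them to integrins, the receptors with which the cell grips its surroundings. Inherited loss of several of these proteins in people, among them WASP, WDR1 and kindlin-3, impairs leukocyte movement or adhesion.

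The libraries held between 14235511 and 15419579 estimated reads, and the defining neutrophil genes were detected in every one, from Elane, an early granule gene, at 33.6 to 42.8 CPM up to Ngp, a later one. Ngp was at 30235 and 34940 CPM (read counts scaled to library size) with ruxolitinib and at 30766 and 30667 CPM with vehicle. Ruxolitinib replicate 1 and vehicle replicate 1 were the closest pair of libraries, with a spread beyond counting noise (biological coefficient of variation) of 3.64%, while the vehicle libraries differed from each other by 32.1% and the ruxolitinib libraries by 17.7%. Results are therefore given library by library. In bulk RNA, fewer cells of a type and less RNA per cell cannot be told apart.

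The actin genes were among the most abundant of the cell. Together the 55 members made up 5.44% and 5.41% of all estimated reads in the ruxolitinib libraries, against 5.45% and 5.42% in the vehicle libraries, so their total share was nearly the same in each library. In TPM, a level corrected for transcript length as well as library depth, Tmsb4x, which encodes the actin monomer buffer thymosin beta 4, had the highest mean level at 9306 TPM and ranked 12 of all genes. Actb, which encodes beta actin, averaged 7947 TPM. The lowest members were Evl, of the Ena/VASP family, at a mean of 20.7 TPM, and Rock2, a ROCK kinase gene, at 23.3 TPM. The lowest estimated read number of any member in any library was 190 (Evl in ruxolitinib replicate 1), and all 55 passed the filter on low counts.

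**Figure D1:**
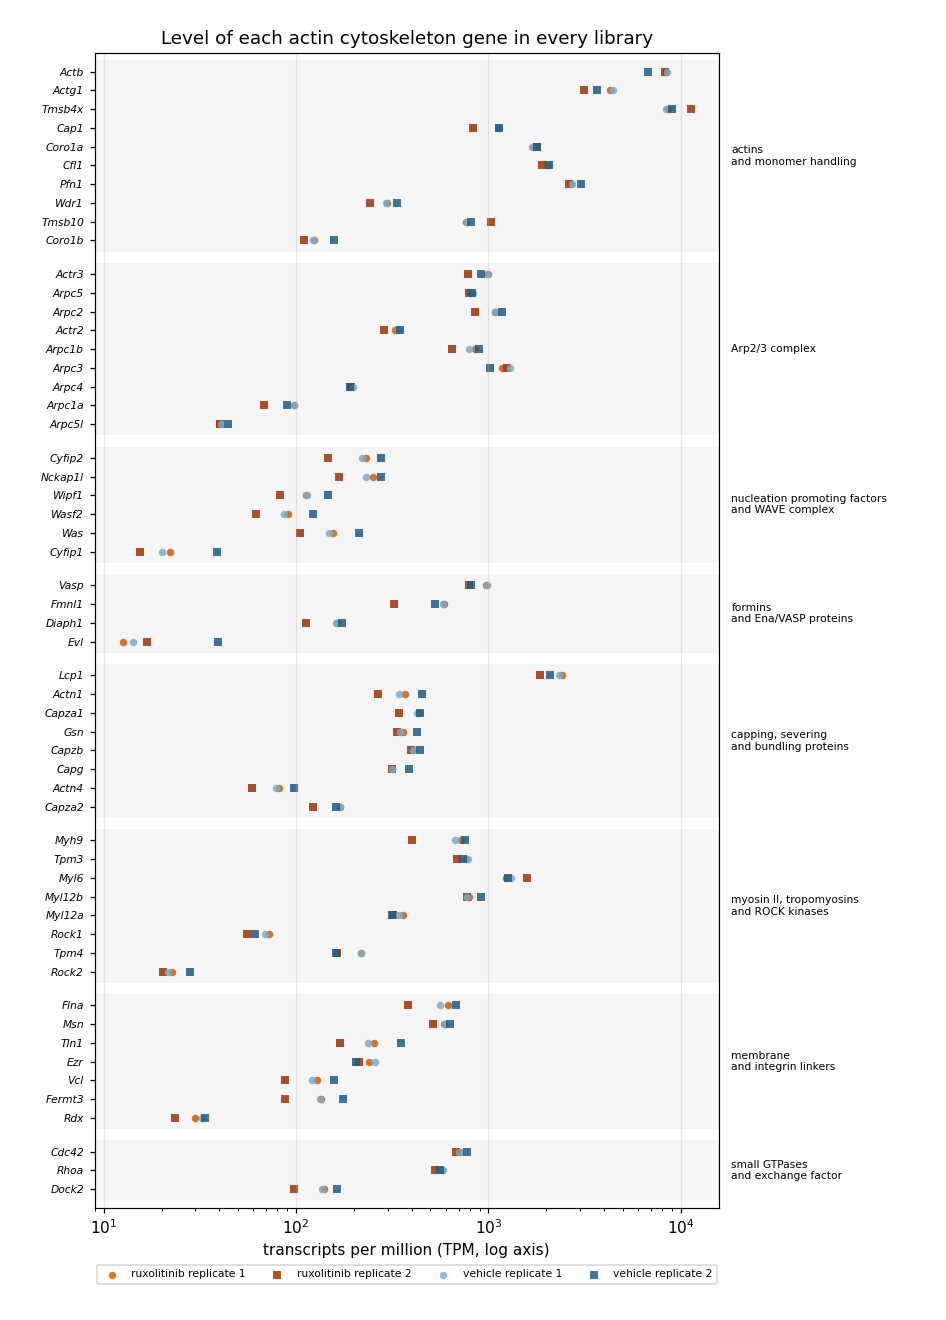
Level of each of the 55 genes in TPM (log axis) in the 4 libraries, grouped by role; each point is 1 library. Levels run from 12.6 TPM for Evl to 11244 TPM for Tmsb4x, and the libraries of each gene lie close together beside that range.

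Several actin genes are textbook targets of SRF, a transcription factor that binds the CArG box and whose partner MRTF is held back by free actin monomers. The promoter table held an entry for 48 of the 55 members, with none for Actb, Coro1b, Arpc5l, Nckap1l, Cyfip1, Diaph1 and Rock1. A CArG box, searched in the 250 bases before the start and the same on both strands, was found for 4 of these 48 genes (8.33%), against 439 of all 27025 genes with an entry (1.62%). The 4 genes are Actg1, Arpc4, Myl6 and Vcl. Actg1 and Vcl are among the textbook SRF targets that the member list holds. The choice of genes thus bears on this share, which was not tested. The Arpc4 window overlaps an exon of Tada3 and is not shown. The other 3 are shown as examples of the box beside an actin, a myosin and a linker gene; they are RefSeq sequence of build GRCm38.p6, 5′ to 3′ on the gene's strand, with the box in capitals.
Actg1, chr11:120348546-120348635, minus strand: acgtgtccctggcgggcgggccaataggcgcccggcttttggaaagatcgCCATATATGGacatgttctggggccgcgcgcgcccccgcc
Myl6, chr10:128493020-128493109, minus strand: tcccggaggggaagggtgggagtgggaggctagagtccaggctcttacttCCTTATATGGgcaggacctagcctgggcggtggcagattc
Vcl, chr14:20929148-20929210, plus strand: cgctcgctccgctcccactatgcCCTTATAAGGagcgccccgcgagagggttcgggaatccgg
The box begins 90 bases before the start of Actg1, 50 before that of Myl6 and 227 before that of Vcl. The Actg1 and Vcl stretches overlap no gene in GENCODE vM21, while the Myl6 stretch lies within the Myl6 gene and outside its exons there, ahead of an internal start. A match is a description of these letters and not of binding.

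The comparison asks whether inhibition of JAK kinases for 1 h alters transcripts of the motility machinery. None of the 55 members was called higher or lower with ruxolitinib by edgeR's quasi-likelihood test at an adjusted p below 0.05, where 0% of all 11611 genes tested were called. At an unadjusted p below 0.05 there were 0 members, against 1.94% of all genes, and DESeq2 and limma also called 0 members. On the TPM scale of the limma fit 8 of 55 members (14.5%) lay above 0, against 33.2% of all genes, whose median there was -0.13. The medians of the monomer, Arp2/3, myosin and GTPase groups given below, all above 0 on counts, were -0.10, -0.10, -0.05 and -0.08 on that scale. The fitted log2 fold changes of ruxolitinib over vehicle ran from -0.67 (Evl) to 0.38 (Tmsb4x), with 28 members (50.9%) above 0 against 49.4% of all genes; values with ± are SE over 2 libraries a group. Their median was 0.00, the same to 2 decimals as the -0.00 of all genes tested. For 50 of the 55 members (90.9%) the 95% interval of the fold change lay within 2-fold in either direction, which was so for 48.5% of all genes. The 5 exceptions were Evl, Cyfip1, Tmsb4x, Tmsb10 and Myl6. The members were also more abundant than most genes. A mean of 100 CPM or more was reached by 50 members, not the same 50, and by 2102 of the 11611 genes. The share of such intervals among genes of similar level was not computed, and the part of level in this contrast was not tested. With 2 libraries a group an exact permutation test of a single gene cannot go below p = 0.333, so none was run.

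**Figure D2:**
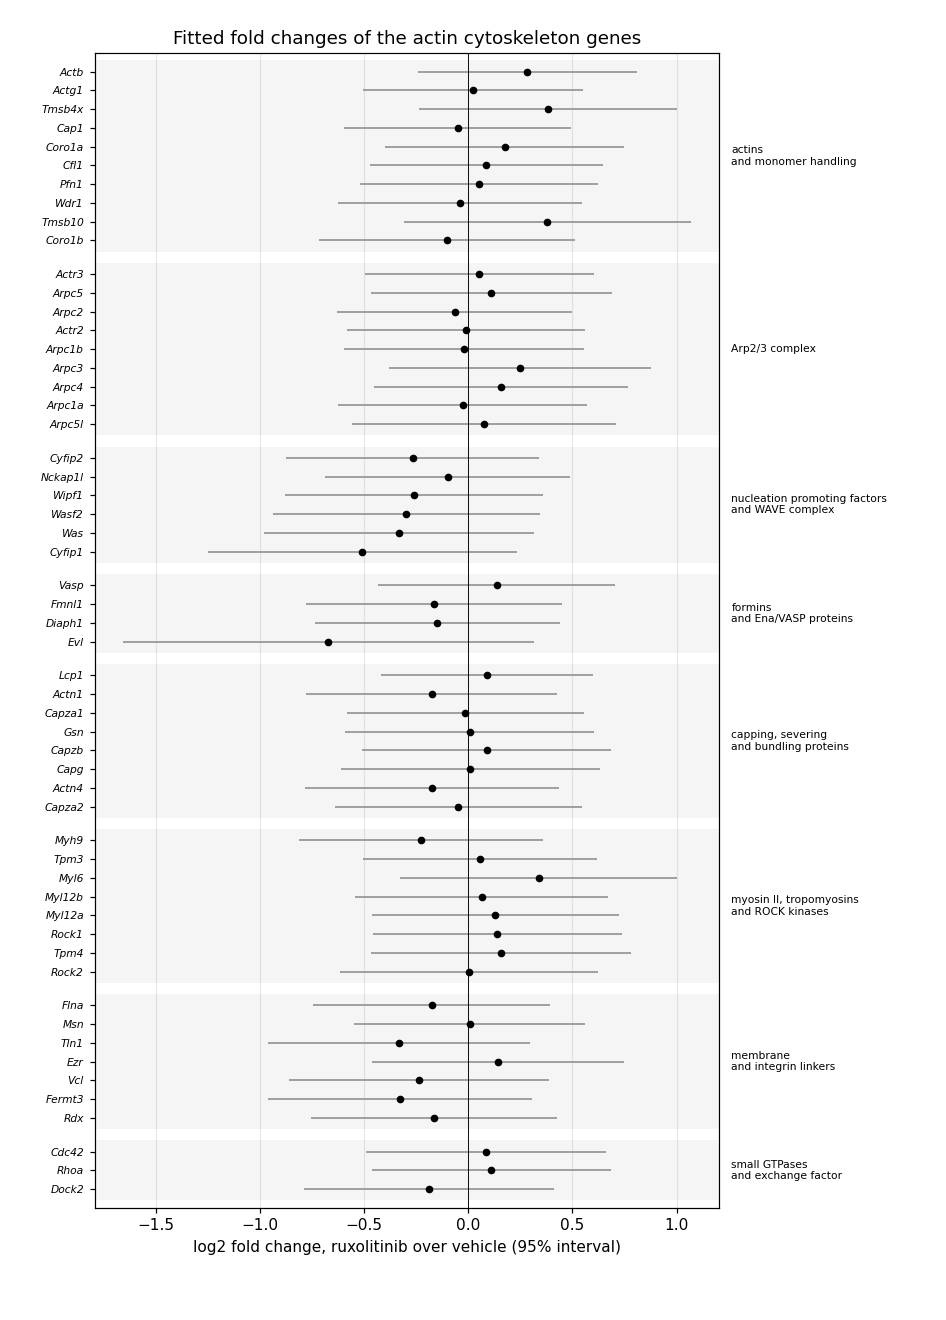
Fitted log2 fold change of ruxolitinib over vehicle for each of the 55 genes, grouped by role, with its 95% interval (n = 2 libraries per group). All intervals span 0, and those of Evl, Cyfip1, Tmsb4x, Tmsb10 and Myl6 reach past a 2-fold difference.

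The members varied less between libraries than most genes did, with a median ratio of highest to lowest library of 1.25, against 1.60 over all genes. The groups did not overlap for 3 of 55 members (5.45%), against 27.3% of all genes: Myl12a and Rock1 lay higher with ruxolitinib (2 members, against 14.5% of genes) and Rdx lower (1 member, against 12.8%). Among genes with a mean of 100 CPM or more, a range that holds 50 of the members, the groups did not overlap for 2 members (4%) and for 22.1% of genes. The highest library exceeded the lowest by over 2-fold for 2 of the 55 (3.64%), Evl and Cyfip1, against 26.3% of all genes, and among genes of 100 CPM or more for 0 members against 14.8% of genes. Ruxolitinib replicate 1 and vehicle replicate 1 differed by under 10% for 52 of the 55 members (94.5%), against 63.1% of all genes. At 100 CPM or more this last contrast was small, at 48 of 50 members (96%) against 90.2% of genes. None of these shares was tested.

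**Figure D3:**
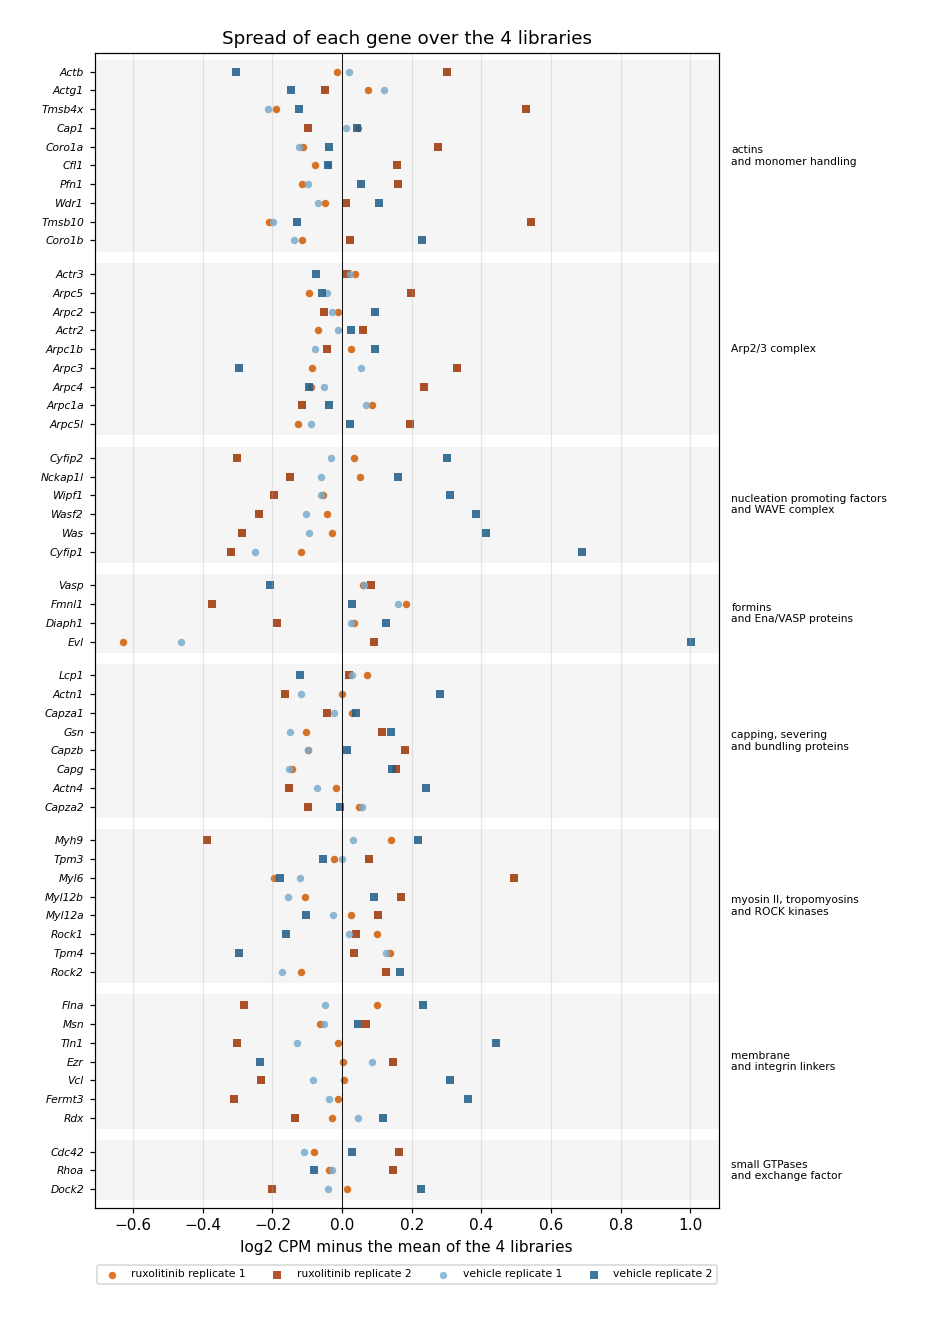
Log2 CPM of each gene in each of the 4 libraries minus the mean of those libraries, grouped by role; circles are replicate 1 and squares replicate 2 of ruxolitinib (orange) and vehicle (blue). The circles of both groups lie close together for most genes (within 10% for 52 of 55), and for 26 of 55 the squares are both the highest and the lowest point, with Evl and Cyfip1 farthest to the right in vehicle replicate 2. The share of all genes with the replicate 2 libraries at both ends was not computed.

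Actin itself did not pass the test. Actb was at 8513 and 10601 CPM in the ruxolitinib libraries and at 8733 and 6966 CPM in the vehicle libraries. Vehicle replicate 2 was the lowest and ruxolitinib replicate 2 the highest, with the replicate 1 libraries together between them. The fitted log2 fold change was 0.28 ± 0.24 (SE; edgeR adjusted p = 0.975). Actg1, which encodes gamma actin, was at 4378 and 4019 CPM with ruxolitinib and at 4522 and 3750 CPM with vehicle, so its groups overlapped.

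The coding sequences of Actb and Actg1 are 88.7% identical over 1128 bases, with identical runs of up to 62 bases, so reads from the shared stretches can be split between them. Beta actin transcripts outnumbered gamma actin transcripts 1.93 and 2.62 to 1 in TPM with ruxolitinib and 1.92 and 1.85 to 1 with vehicle. The ratio was thus higher in ruxolitinib replicate 2 than in the other 3 libraries, which lay close to each other.

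Among the proteins that hold actin monomers, both thymosins were highest in ruxolitinib replicate 2. Tmsb4x was at 2665 and 4375 CPM with ruxolitinib and at 2618 and 2786 CPM with vehicle, fitted at 0.38 ± 0.28 on the log2 scale (SE; edgeR adjusted p = 0.975). Tmsb10, which encodes thymosin beta 10, was at 192 and 323 CPM with ruxolitinib and at 194 and 203 CPM with vehicle (0.38 ± 0.31, adjusted p = 0.975). For both genes 3 of the 4 libraries were nearly level and the groups overlapped. Without ruxolitinib replicate 2 the fitted values were -0.02 for Tmsb4x and -0.04 for Tmsb10. Pfn1, whose product profilin feeds monomers to growing ends, was at 1149 and 1392 CPM with ruxolitinib and at 1162 and 1291 CPM with vehicle. Cfl1, which encodes the filament-severing protein cofilin, was at 1221 and 1437 CPM with ruxolitinib and 1251 CPM in each vehicle library. Both genes were highest in ruxolitinib replicate 2 and overlapped between groups.

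Wdr1 and Coro1a, a coronin gene of blood cells, encode partners of cofilin in filament disassembly, and Cap1 encodes a protein that recharges released monomers. Coro1a was at 1497 and 1956 CPM with ruxolitinib and at 1483 and 1576 CPM with vehicle, and Coro1b, a related gene, at 123 and 135 CPM against 121 and 156 CPM. Wdr1 was at 450 and 469 CPM with ruxolitinib and at 444 and 501 CPM with vehicle. Cap1 spanned only from 1563 CPM in ruxolitinib replicate 2 to 1728 CPM in ruxolitinib replicate 1. Over the 10 genes of actin and monomer handling the median log2 fold change was 0.07, with 7 above 0, and the median of each fit that left out 1 library ran from -0.03 to 0.20.

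The Arp2/3 complex has 2 actin-like subunits, encoded by Actr2 and Actr3, and accessory subunits encoded by the Arpc genes. The median fold change of its 9 genes was 0.05 on the log2 scale, with 5 above 0, and 0 were called. Actr3 was at 1413 and 1390 CPM with ruxolitinib and at 1398 and 1306 CPM with vehicle, and Actr2 at 664 and 726 CPM against 690 and 708 CPM. The highest library exceeded the lowest by a ratio of 1.08 for Actr3 and 1.09 for Actr2. Arpc3 had the smallest unadjusted p of the complex, at 521 and 695 CPM with ruxolitinib and 574 and 451 CPM with vehicle, fitted at 0.25 ± 0.29 on the log2 scale (SE; edgeR adjusted p = 0.975). Arpc4 followed, at 236 and 295 CPM with ruxolitinib and 242 and 234 CPM with vehicle (0.16 ± 0.28, adjusted p = 0.976). In both genes ruxolitinib replicate 2 stood highest and the other ruxolitinib library lay within the vehicle range. Arpc2, which encodes a scaffold subunit, was at 853 and 831 CPM with ruxolitinib and at 843 and 919 CPM with vehicle.

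Vertebrate Arp2/3 can carry either of a pair of related subunits at 2 positions. Arpc1b transcripts outnumbered Arpc1a transcripts 8.69 and 9.52 to 1 in TPM with ruxolitinib and 8.19 and 9.94 to 1 with vehicle. Arpc5 outnumbered Arpc5l 20.3 and 19.5 to 1 with ruxolitinib and 20.6 and 18.6 to 1 with vehicle. The ratio ranges of the groups overlapped for Arpc1b over Arpc1a and for Arpc5 over Arpc5l. Arpc1b, whose loss in people causes an immune deficiency, was thus the more abundant of its pair in all 4 libraries.

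The activators of the Arp2/3 complex had fitted values below 0 for all 6 members, with a median log2 fold change of -0.28, and 0 were called. No other of the 8 role groups had every member on 1 side of 0 on counts, while on log2(TPM + 1) the formin, capping, linker and GTPase groups did so too. Each of the 6 was highest in vehicle replicate 2 and lowest in ruxolitinib replicate 2, while the replicate 1 libraries lay between them. Over all genes, 38.5% were highest in vehicle replicate 2 and 29.4% were lowest in ruxolitinib replicate 2. The share of all genes with both was not computed. Without vehicle replicate 2 the median of the group was -0.05 and 2 of the 6 lay above 0, and without vehicle replicate 1 it was -0.47.

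Was, which encodes the blood-cell activator WASP, was at 176 and 147 CPM with ruxolitinib and at 168 and 239 CPM with vehicle, fitted at -0.33 ± 0.29 on the log2 scale (SE; edgeR adjusted p = 0.975). Wipf1, whose product stabilises WASP, was at 284 and 258 CPM with ruxolitinib and 284 and 367 CPM with vehicle. Wasf2, which encodes WAVE2, was at 263 and 229 CPM with ruxolitinib and at 252 and 353 CPM with vehicle. In these 3 genes the replicate 1 libraries of both groups agreed closely and vehicle replicate 2 stood above them.

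Nckap1l and the Cyfip genes encode further subunits of the WAVE complex, the Cyfip proteins being those that bind active Rac. Nckap1l, the blood-cell member of its family, was at 621 and 540 CPM with ruxolitinib and at 575 and 669 CPM with vehicle. Cyfip2 was at 825 and 655 CPM with ruxolitinib and at 788 and 993 CPM with vehicle. Cyfip1 was at 57.7 and 50.3 CPM with ruxolitinib and at 52.7 and 101 CPM with vehicle, so only vehicle replicate 2 stood apart. The fitted log2 fold change was -0.51 ± 0.34 (SE; edgeR adjusted p = 0.975), with the smallest unadjusted p of all members (0.159). Cyfip2 transcripts outnumbered Cyfip1 transcripts 10.4 and 9.44 to 1 in TPM with ruxolitinib and 11.0 and 7.12 to 1 with vehicle.

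Formins and Ena/VASP proteins build unbranched filaments, and their genes held the widest spread of any member. Evl (chromosome 12, 108554681 to 108688516, GRCm38.p6), which encodes an Ena/VASP protein, was at 12.6 and 20.8 CPM with ruxolitinib and at 14.2 and 39.1 CPM with vehicle. Vehicle replicate 2 was 3.10 times the lowest library, and the groups overlapped. The fitted log2 fold change was -0.67 ± 0.45 (SE; edgeR adjusted p = 0.975). Vasp, the founding gene of that family, was lowest in the library where Evl was highest, at 1191 and 1209 CPM with ruxolitinib and 1193 and 989 CPM with vehicle. Fmnl1, a formin gene of blood cells, was at 1270 and 863 CPM with ruxolitinib and at 1249 and 1140 CPM with vehicle, with ruxolitinib replicate 2 alone low. Diaph1, which encodes the formin mDia1, was at 514 and 441 CPM with ruxolitinib and at 510 and 547 CPM with vehicle. The median log2 fold change of these 4 genes was -0.16, and 1 of them lay above 0. Without ruxolitinib replicate 1 that median was -0.30, and without ruxolitinib replicate 2 it was 0.02 with 2 above 0.

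Evl and Cyfip1 were the members whose call depended on a single library. Without vehicle replicate 1, a fit that takes the spread of the remaining vehicle library from the ruxolitinib libraries, Evl was called lower at a log2 fold change of -1.22 (edgeR adjusted p = 0.00236) and Cyfip1 at -0.89 (adjusted p = 0.0158). No member was called without vehicle replicate 2 (0.0169% of all genes called), without ruxolitinib replicate 1 (0.0833%) or without ruxolitinib replicate 2 (0.0499%). The calls without vehicle replicate 1 were 2 of 55 members (3.64%) in a fit that called 13.7% of all genes, with 6.62% of all genes called lower. At 100 CPM or more that fit called 0 of 50 members and 13.6% of genes. Without vehicle replicate 2 both values changed sign, to 0.23 for Evl and 0.03 for Cyfip1, and neither was called.

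Cappers, severers and bundlers shape filaments once they exist. Lcp1, which encodes the leukocyte bundling protein L-plastin, led this group at 4717 and 4545 CPM with ruxolitinib and 4574 and 4129 CPM with vehicle. Gsn, which encodes the calcium-activated severing protein gelsolin, was at 517 and 602 CPM with ruxolitinib and at 501 and 613 CPM with vehicle, and Capg, a related capping gene, at 211 and 259 CPM against 210 and 257 CPM. For both genes the replicate 2 libraries lay above the replicate 1 libraries, whatever the treatment. Capza1, Capza2 and Capzb encode the subunits of capping protein. Capza1 was at 754 and 717 CPM with ruxolitinib and at 726 and 759 CPM with vehicle, a ratio of highest to lowest of 1.06, the smallest of all 55 members. Capzb was at 361 and 437 CPM with ruxolitinib and at 361 and 390 CPM with vehicle.

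The alpha-actinin genes, whose products cross-link filaments, had the smallest unadjusted p-values of the group. Actn1 was at 767 and 685 CPM with ruxolitinib and at 708 and 933 CPM with vehicle, fitted at -0.18 ± 0.27 on the log2 scale (SE; edgeR adjusted p = 0.975). Actn4 was at 171 and 156 CPM with ruxolitinib and at 165 and 205 CPM with vehicle (-0.18 ± 0.28, adjusted p = 0.975). Both were highest in vehicle replicate 2 and lowest in ruxolitinib replicate 2. The median of the 8 genes was -0.00, with 4 above 0 and 4 below.

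Myosin II is a motor of heavy chains and light chains, and its genes pointed in different directions in ruxolitinib replicate 2. Myh9, the heavy chain gene of this motor in blood cells, was at 3017 and 2091 CPM with ruxolitinib and at 2794 and 3180 CPM with vehicle, fitted at -0.23 ± 0.27 on the log2 scale (SE; edgeR adjusted p = 0.975). Myl6, which encodes the essential light chain, was at 390 and 629 CPM with ruxolitinib and at 411 and 395 CPM with vehicle (0.34 ± 0.30, adjusted p = 0.975). The heavy chain gene was thus lowest and the light chain gene highest in the same library. Without that library the fitted values were 0.02 for Myh9 and -0.05 for Myl6.

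The regulatory light chain genes Myl12a and Myl12b lie on chromosome 17, and their coding sequences are 96.5% identical over 519 bases, with an identical run of 105 bases. The first 90 coding bases are shown from the GENCODE vM21 transcripts, with the 4 bases that differ in capitals, to show how alike the stretches are that reads are assigned from.
Myl12a: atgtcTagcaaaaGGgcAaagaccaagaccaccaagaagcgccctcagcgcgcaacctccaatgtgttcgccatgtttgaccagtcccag
Myl12b: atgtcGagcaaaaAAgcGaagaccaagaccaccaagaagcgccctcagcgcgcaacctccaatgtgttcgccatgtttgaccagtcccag
Myl12a was at 282 and 297 CPM with ruxolitinib and at 272 and 257 CPM with vehicle, the groups not overlapping. Myl12b was at 370 and 448 CPM with ruxolitinib and at 358 and 424 CPM with vehicle, and its groups overlapped. The processing notes name RSEM without stating its role. The estimated counts of both genes were fractional only in ruxolitinib replicate 1, at 4243.25 for Myl12a and 5570.75 for Myl12b. How many reads were shared between this pair of genes is not stated, so their separate levels are uncertain.

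ROCK kinases switch myosin II on by way of the regulatory light chain. Rock1 was at 252 and 241 CPM with ruxolitinib and at 238 and 210 CPM with vehicle, without overlap. Rock2 was at 92.0 and 109 CPM with ruxolitinib and at 88.5 and 112 CPM with vehicle. Rock1 transcripts outnumbered Rock2 transcripts 3.21 and 2.75 to 1 in TPM with ruxolitinib and 3.18 and 2.17 to 1 with vehicle. The tropomyosin genes, whose products line filaments, were at 919 and 986 CPM against 934 and 899 CPM for Tpm3 and at 246 and 229 CPM against 244 and 182 CPM for Tpm4, ruxolitinib before vehicle in each. Tpm4 was lowest in vehicle replicate 2, and its groups overlapped. Of the 8 genes 7 lay above 0, with a median of 0.10. Without ruxolitinib replicate 2 the median was 0.01 with 5 above 0, and without vehicle replicate 1 it was 0.14, also with 5 above 0.

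The linkers join actin to integrins and to the membrane. Tln1, which encodes the integrin activator talin, was at 1195 and 978 CPM with ruxolitinib and at 1102 and 1636 CPM with vehicle, fitted at -0.33 ± 0.29 on the log2 scale (SE; edgeR adjusted p = 0.975). Fermt3, which encodes kindlin-3, the partner of talin in blood cells, was at 190 and 154 CPM with ruxolitinib and at 186 and 246 CPM with vehicle (-0.33 ± 0.29, adjusted p = 0.975). Vcl, whose product vinculin strengthens the talin link, was at 377 and 319 CPM with ruxolitinib and at 354 and 465 CPM with vehicle. These 3 genes shared 1 order of libraries, with vehicle replicate 2 highest and ruxolitinib replicate 2 lowest.

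Flna, which encodes the filament cross-linker filamin A, had that order too, at 2883 and 2216 CPM with ruxolitinib and 2600 and 3159 CPM with vehicle. Msn, Ezr and Rdx encode moesin, ezrin and radixin, which fasten filaments to the membrane, and moesin transcripts outnumbered radixin transcripts 19.6 and 22.0 to 1 in TPM with ruxolitinib and 18.2 and 18.8 to 1 with vehicle. Msn was at 1252 and 1374 CPM with ruxolitinib and at 1261 and 1351 CPM with vehicle. Ezr was at 407 and 450 CPM with ruxolitinib and at 431 and 345 CPM with vehicle. Rdx, the low member of the family, was at 71.5 and 66.5 CPM with ruxolitinib and at 75.4 and 79.2 CPM with vehicle, the only member whose groups stood apart with ruxolitinib lower. The 7 linkers had a median of -0.18, and the median ran from -0.35 without ruxolitinib replicate 1 to -0.03 without vehicle replicate 2.

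The GTPases that steer the machinery, with an exchange factor, differed between libraries by ratios from 1.17 to 1.35. Cdc42, which acts on WASP, was at 819 and 969 CPM with ruxolitinib and at 804 and 884 CPM with vehicle. Rhoa, which encodes a GTPase that acts on the ROCK kinases and mDia1, was at 672 and 763 CPM with ruxolitinib and at 676 and 652 CPM with vehicle. Dock2, which encodes the main activator of Rac in moving leukocytes, was at 467 and 402 CPM with ruxolitinib and at 450 and 541 CPM with vehicle, fitted at -0.19 ± 0.27 on the log2 scale (SE; edgeR adjusted p = 0.975). The groups overlapped for all 3 genes, whose median log2 fold change was 0.08. It was -0.04 without ruxolitinib replicate 2 and 0.21 without ruxolitinib replicate 1.

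The position of ruxolitinib replicate 2 moved with gene length. Of the 20 members with an effective length over 3000 bases 15 were lowest in ruxolitinib replicate 2, with a median log2 difference of -0.20 from ruxolitinib replicate 1, and of the 13 members under 1500 bases 2 were lowest there, with a median difference of 0.28. All genes tested showed the same direction, with medians of -0.11 over 3000 bases and 0.26 under 1500 bases. Among them, 2014 of 5159 genes over 3000 bases and 307 of 2279 under 1500 bases were lowest in ruxolitinib replicate 2. Spearman's correlation between length and this difference was -0.70 across the 55 members and -0.32 across 11611 genes, a description across genes that share the same pair of libraries. Long and short members also separated in the fitted fold changes, with medians of -0.18 over 3000 bases and 0.08 under 1500 bases. Between the vehicle libraries this correlation was 0.32 across members and 0.13 across all genes.

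**Figure D4:**
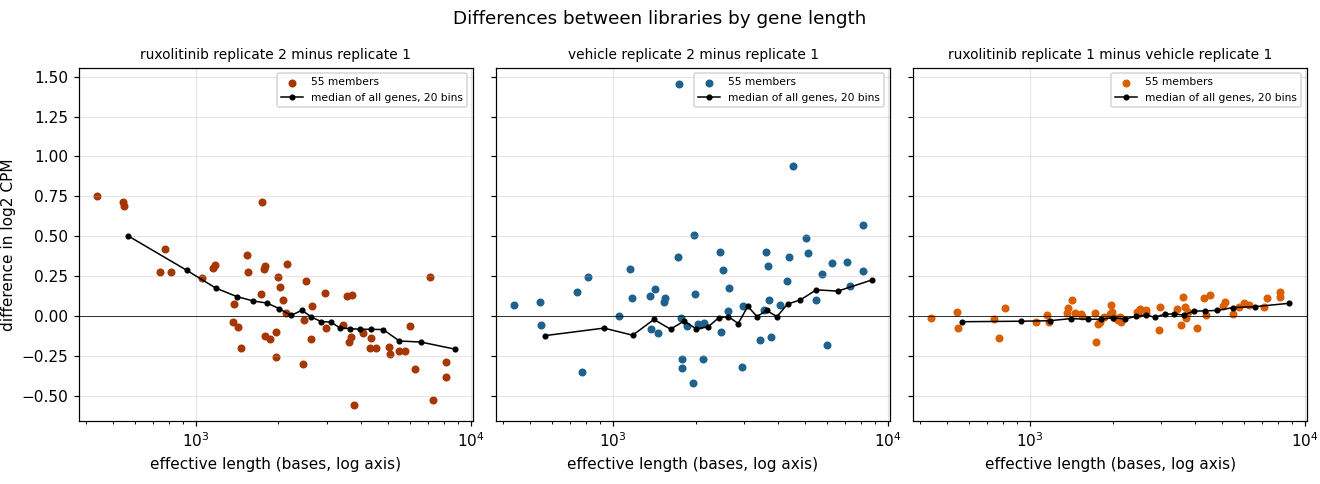
Difference in log2 CPM between pairs of libraries against effective length in bases (log axis), for the 55 members (points) and as the median of all genes tested in 20 bins of length (line). The left panel falls with length, the middle panel rises slightly, and the right panel, ruxolitinib replicate 1 minus vehicle replicate 1, stays close to 0.

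The ratio of TPM to the related unit FPKM, which depends on the lengths and abundances of the transcripts in a library, had a median of 1.46 in ruxolitinib replicate 2 and 1.73 in ruxolitinib replicate 1, against 1.71 in each vehicle library. With the length trend of each library removed, a setting chosen after the data were seen, the fitted log2 fold changes were 0.09 for Tmsb4x, 0.04 for Tmsb10, 0.06 for Myl6 and -0.12 for Myh9, while Evl stayed at -0.73 and Cyfip1 at -0.44. In that setting the actin and monomer handling group had a median of -0.02, with 4 of 10 above 0. The Arp2/3 activators, all but Was over 3000 bases in effective length, had a median of -0.21, with 0 above 0. The other role groups also kept the sign of their median. The part of length in these members' values was not tested further.

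Other actin regulators of the cell, a list of 66 genes such as Rac1, Coro1c and Limk1, gave 0 calls among 62 tested, with a median log2 fold change of -0.16 and 38 members below 0. Their median lay at 0.28 in vehicle replicate 2 over vehicle replicate 1 and at 0.03 between the replicate 1 libraries. The 10 members known as SRF targets held 0 calls and a median of -0.08, with 5 above 0: Actb, Actg1, Cfl1, Pfn1 and Tpm4, against Vcl, Myh9, Flna, Tln1 and Actn1 below. They did not share an order of libraries.

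Markers of other marrow cells moved between single libraries, while the 13 neutrophil markers summed to 91770 and 113919 CPM with ruxolitinib and to 90647 and 99211 CPM with vehicle. Single neutrophil genes went different ways. Cxcr2, which encodes a chemokine receptor of mature neutrophils, was at 542 and 463 CPM with ruxolitinib and at 526 and 1036 CPM with vehicle, and Csf3r, which encodes the G-CSF receptor, at 1758 and 1603 CPM with ruxolitinib and at 1715 and 2789 CPM with vehicle. Both had the order of libraries seen in the WAVE genes. Mpo, an early granule gene, was at 164 and 72.7 CPM with ruxolitinib and at 154 and 166 CPM with vehicle, while Retnlg was at 4904 and 7957 CPM with ruxolitinib and at 4594 and 4444 CPM with vehicle. The summed level of 9 erythroid markers was 9184 and 23225 CPM with ruxolitinib and 9286 and 8939 CPM with vehicle, so only ruxolitinib replicate 2 was high. The 10 eosinophil, basophil and mast cell markers summed to 880 and 306 CPM with ruxolitinib and to 772 and 1106 CPM with vehicle. This sum was lowest in the library where the WAVE genes were lowest and highest where these were highest. Prg2, Epx, Prg3, Siglecf and Il5ra had these same highest and lowest libraries, and Prg2 and Epx made up most of the sum. Mcpt8 had the reverse, at 10.3 and 13.4 CPM with ruxolitinib and 11.7 and 8.28 CPM with vehicle. Ccr3, Cpa3, Ms4a2 and Fcer1a had other orders. The 9 dendritic cell markers summed to 3433 and 5924 CPM with ruxolitinib and to 3646 and 2712 CPM with vehicle, again highest in ruxolitinib replicate 2. Nearly all of that sum came from Cd74, H2-Aa and H2-Ab1, which B cells express as well. Siglech, Flt3 and Bst2 were also highest in ruxolitinib replicate 2, while Cd209a and Ccr9 were highest in ruxolitinib replicate 1. Clec9a, restricted to dendritic cells, was lowest in ruxolitinib replicate 2. It was low in every library, at 0.997 and 0.368 CPM with ruxolitinib and 1.21 and 3.39 CPM with vehicle. Monocyte markers stayed between 1368 and 1606 CPM, and T and natural killer cell markers between 57.8 and 79.4 CPM. The 10 B lineage markers summed to 1209 and 2090 CPM with ruxolitinib and to 1231 and 1602 CPM with vehicle, high in both replicate 2 libraries. Platelets are rich in actin and tropomyosin. Of the 10 megakaryocyte and platelet markers, 6 were tested above the filter. They summed to 105 CPM in each ruxolitinib library, against 108 and 125 CPM in the vehicle libraries. Most of that sum came from Itgb3, at 88.4 and 90.6 CPM with ruxolitinib and 92.9 and 105 CPM with vehicle. Itga2b was lowest in ruxolitinib replicate 2, at 7.71 and 3.31 CPM with ruxolitinib and 7.30 and 9.72 CPM with vehicle. Gp1ba and Gp1bb were highest in that library. The platelet granule genes Pf4 and Ppbp lay between 0.127 and 0.457 CPM in every library, and Treml1 was at 0 in both ruxolitinib libraries. The part of these cells in the members' values was not tested.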

How the data were processed

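RNA was extracted with Trizol and sequenced on Illumina libraries, per the labels' protocols. The submitters' processing notes name RSEM, Bowtie2 and DESeq2 and the build GRCm38.p6; versions, roles and annotation are not stated in the sources read. Per the file headers, the authors deposited an estimated count, a TPM and an FPKM value per gene, 1 file per library; between 91.0% and 91.1% of estimated counts were whole within 1e-06.

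Counts were rounded and analysed in R 4.3.3 with edgeR 4.0.16 (filterByExpr, TMM, quasi-likelihood test, group as the only term, Benjamini-Hochberg over 11611 genes, threshold 0.05). CPM values use TMM-scaled library sizes, log2 CPM a prior count of 2, and the SE is the log2 fold change divided by the square root of F. TPM served for levels between genes, and FPKM with counts for effective length. Intervals of 95% come from the same fit. The test was checked on simulated data. Treatment labels set the groups and titles the replicate numbers.

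Alternatives were RLE scaling, DESeq2 1.42.0, a minimum of 1 count in any library, limma 3.58.1 on log2(TPM + 1), each library left out, a replicate block and, added later, removal of the length trend (loess, span 0.3). Members and lists were chosen with earlier results of these data known. A fold change is given for Actb and the members of each role group with the smallest p-values: 2 a group, or 1 in groups of 4 or fewer. Coordinates count from 1. No promoter or coding sequence from chromosome 18 is shown.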

Additional observations from a re-analysis of the deposited data

How the results depend on the processing

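No member was called under RLE scaling, DESeq2, the minimum of 1 count, limma on log2(TPM + 1), the replicate block or removal of the length trend. Leaving out each library in turn gave from 0 to 2 called members and from 2 to 1645 called genes over all genes, against 0 in all 4 libraries. The replicate block called 16 genes over all (0.138%) and 0 members. Deviations of same-numbered libraries from their group means had r = 0.04 across all genes tested. With 2 libraries a group, this r cannot tell whether the numbers pair the libraries. The replicate 1 libraries were the closest pair, at a biological coefficient of variation of 3.64%. On log2(TPM + 1) the median of the members was -0.16, with 8 of 55 above 0, beside a shift of all genes to -0.13, and Arpc4 changed sign (-0.013). With 1 library left out, fitted values changed sign within these ranges: Actn1 -0.35 to 0.028, Arpc4 -0.014 to 0.32, Cyfip1 -0.89 to 0.027, Evl -1.22 to 0.23, Myh9 -0.51 to 0.015, Myl6 -0.047 to 0.65, Tmsb10 -0.045 to 0.71 and Tmsb4x -0.020 to 0.70. The cause was not tested. The other fold changes given with an adjusted p kept their sign, but several came close to 0: without vehicle replicate 2, Tln1 was at -0.03, Actn4 at -0.02, Was at -0.07, Dock2 at -0.06, Fermt3 at -0.12 and Actb at 0.12, and without ruxolitinib replicate 2, Arpc3 was at 0.02. Each group had 2 libraries, the common biological coefficient of variation was 25.7% and each member had at least 190 reads in every library.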
